A study of Mus musculus with 12 samples.

Results

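The cytosolic ribosomal protein genes encode the protein parts of the ribosome, the particle that translates mRNA in every cell. They were examined as a housekeeping reference in CUT&RUN data of mesenchymal stem cells (MSCs), multipotent stromal cells, from young and old mice. CUT&RUN cuts and sequences the DNA around a histone mark that an antibody has bound in permeabilised cells. The members were the autosomal protein-coding genes of GENCODE named Rpl or Rps and a digit, together with Rplp0, Rplp1, Rplp2 and Rpsa. Of 102 matching names, 10 Rps6k kinases, 6 names with the pseudogene-style ending -ps and a digit and 4 X-linked genes were left out, which gave 82 members of 21951 protein-coding genes. They were 40 large subunit genes, 30 small subunit genes, 3 genes of the P-stalk (the flexible arm of the large subunit that recruits translation factors), 8 paralogs of subunit genes and Rps19bp1, which encodes a partner of the S19 protein and no subunit. The 73 genes of the first 3 classes are called core subunit genes.

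The young mice were 3 to 5 months old and the old mice 18 to 22 months old, and all cells were cultured at 2% oxygen. Each mark, H3K27ac and H3K27me3, had 3 young and 3 old libraries, 12 in all. The suspension of a sample was split between the antibodies, so libraries of the 2 marks may come from the same cells. The labels name no strain, sex or number of animals per library, and p-values therefore measure only the spread between these libraries, which may be technical. Depth was 2750953 to 5541429 reads for H3K27ac and 3622108 to 9947515 for H3K27me3, with old replicate 2 the shallowest in both marks. All 10 MSC marker genes had an H3K27ac promoter region, against 1 of 7 blood and macrophage markers (Cd68) and 0 of 10 endothelial, muscle and epithelial markers.

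H3K27ac is deposited on the nucleosomes beside active promoters and enhancers, whereas H3K27me3 is laid down by Polycomb complexes over silenced genes. Ribosomal protein genes are transcribed in nearly all cells in matched amounts, and their promoters carry acetylated nucleosomes around a short start region. Many of their mRNAs begin with a terminal oligopyrimidine (TOP) tract, a run of C and T at the start site through which mTOR signalling controls their translation. Several members have paralogs that are used in a single tissue, such as striated muscle or testis.

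A promoter region was a deposited region that overlapped the window from 1 kb before to 1 kb after the start of the gene record, on GRCm38 (mm10). An H3K27ac promoter region was present at 76 of 82 members (92.7%, 95% Wilson interval 84.9 to 96.6), against 11000 of 20725 other autosomal genes (53.1%). The share was 71 of 73 core subunit genes (97.3%) and 4 of 8 paralogs (50.0%, interval 21.5 to 78.5). Mitochondrial ribosomal protein genes, which serve the separate ribosome of that organelle, had one at 75 of 78 genes (96.2%). H3K27me3 lay in the window of 9 of 82 members (11%, interval 5.88 to 19.6), against 34.5% of other autosomal genes and 11 of 78 mitochondrial ribosomal protein genes. Among the 11000 other autosomal genes with an H3K27ac promoter region the share was 14.7%, which lies within the members' interval. The intervals cover counting error only, and neighbouring genes can share a region, so the 76 genes had 75 distinct H3K27ac regions.

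**Figure D1:**
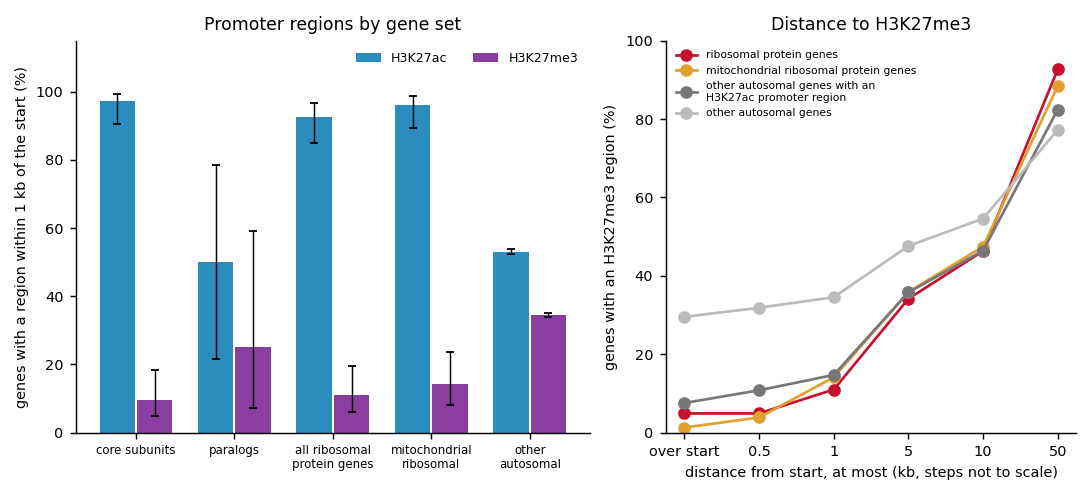
Left, percentage of genes with an H3K27ac or H3K27me3 region within 1 kb of the start, with 95% Wilson intervals, in 5 gene sets. Right, percentage of genes with an H3K27me3 region at increasing distance from the start. H3K27ac stood at 97.3% of core subunit genes and 50.0% of paralogs, and the share of members with H3K27me3 went from 4.88% over the start to 34.1% within 5 kb.

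The 6 members without an H3K27ac promoter region fell into 2 kinds. Rps27rt, Rpl10l, Rpl39l and Rpl3l are paralogs. Rps27rt is a retrogene copy of Rps27 and Rpl3l is the striated muscle paralog of Rpl3, while Rpl10l and Rpl39l are autosomal, testis-expressed paralogs of X-linked genes. The nearest H3K27ac region lay 33.2 kb from Rps27rt, 1110 kb from Rpl10l, 109.8 kb from Rpl39l and 2.32 kb from Rpl3l. Of the 4, the starts of Rps27rt and Rpl3l lay inside an H3K27me3 region, and those of Rpl10l and Rpl39l had neither mark in the window.

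Rpl3 and Rpl17, the other members without a region, are core large subunit genes, and protein-coding transcripts of both start downstream of the gene-record start. For Rpl3 this is 8462 bp downstream, and for Rpl17 it is up to 1919 bp, with other transcripts at the gene-record start itself. Scaled signal, here and below, is the deposited signal of a whole region after the libraries of a mark were brought to a common scale by the median of ratios over all regions. At its transcript start Rpl3, a subunit protein near the peptidyl transferase centre, had an H3K27ac region of 11.5 kb with scaled signals of 31.7, 27.7 and 26.6 in the young and 28.3, 33.0 and 36.2 in the old libraries. Its log2 fold change was 0.17 (SE 0.16, adjusted p = 0.776). Rpl17, a protein at the exit tunnel, had a region of 9.0 kb with a log2 fold change of 0.17 (SE 0.15, adjusted p = 0.767). That region also held the start of BC031181, so its signal is not that of Rpl17 alone. Counting every transcript start, 78 of 82 members (95.1%) had an H3K27ac region, and the 4 without one were the 4 paralogs above. Rps24, a small subunit protein, was affected in the same way: its gene-record start held a region of 2.0 kb with 8.83 reads per library, while its transcript starts, 3556 to 3642 bp downstream, lay in a region of 11.5 kb with a log2 fold change of 0.05 (SE 0.16).

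The sequences around the start sites are shown for the letters that define a TOP tract, in acetylated members and in the paralogs without acetylation. They are 30 bases of RefSeq, build GRCm38.p6, with 15 bases before and 15 from the annotated start. They are written 5′ to 3′ on the coding strand, and capitals mark the longest unbroken run of C and T. The RefSeq start can differ from the gene-record start used for the regions. For Rps10 it was at 27635244 of chromosome 17, against 27636669. The first 4 lines are acetylated housekeeping or growth-regulated members, of which Rps6 encodes the substrate of S6 kinase, Rps18 is a common reference gene, Rps27 encodes a zinc-finger protein of the small subunit and Rps10 one of its head proteins.
Rps6 (chr4:86857353-86857382, minus strand): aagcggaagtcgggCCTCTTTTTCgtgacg
Rps18 (chr17:33955651-33955680, minus strand): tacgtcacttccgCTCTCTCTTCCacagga
Rps27 (chr3:90213634-90213663, minus strand): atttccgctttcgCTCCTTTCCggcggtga
Rps10 (chr17:27635230-27635259, minus strand): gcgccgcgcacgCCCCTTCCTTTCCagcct
The next 4 are the paralogs without H3K27ac.
Rps27rt (chr9:114982725-114982754, minus strand): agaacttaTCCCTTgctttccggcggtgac
Rpl39l (chr16:10170213-10170242, plus strand): ctcccaggCCTTTCCggatttccggtggtc
Rpl10l (chr12:66284387-66284416, minus strand): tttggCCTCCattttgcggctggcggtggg
Rpl3l (chr17:24727811-24727840, plus strand): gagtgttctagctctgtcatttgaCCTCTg
The run was 9 to 13 bases long in the first 4 genes and covered the start site in each, and it was 5 to 7 bases long in the 4 paralogs. The first 4 were picked with their letters known. The 13 acetylated members whose start was read were not drawn from all members. They include the 8 members, described below, whose old and young H3K27ac libraries did not overlap, so the choice partly followed values of these data. Of the 13 members, 11 held a run of 8 or more, and Rpl11 (3 bases) and Rpl22 (4 bases) did not. In some of the 11 the run did not reach the start site, as in Rpl34 and Rps27l. The count of 11 is therefore not a share that can be set beside other promoters. Of 32851 RefSeq promoters of all genes, 12% held a run of 8 or more C and T in the same window on the coding strand. Sequences were matched for 62 of 82 members (75.6%), which is under the 80% needed, so no share over all members is given. A run describes these letters and is not evidence that a transcript starts or is regulated there.

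Rps27 and Rps27rt share the letters downstream of the start but not those upstream. The longest identical run between them was 38 of the 50 bases from the start, and 10 of the 250 bases before it. For Rps27 and Rps27l, a paralog that is induced by p53, these runs were 5 and 7 bases, and for Rpl22 and Rpl22l1 they were 4 and 7 bases. Reads from the transcribed part of Rps27 and Rps27rt may therefore not be told apart, although their regions extended well beyond it.

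Old and young cells were then compared over the 75 H3K27ac regions. Of these, 0 passed the limma test at an adjusted p under 0.05, where 26 of 31617 regions did in the whole table (0.0822%). At an unadjusted p under 0.05 there were 5 (6.67%), against a background of 9.6%. edgeR on the recovered reads called 0 of the 75, against 0.297% of all regions, and DESeq2 called 0 of the 26 to which it gave an adjusted p, against 6 of 2807 in the table (0.214%). The median log2 fold change, old against young, was -0.005, with an interquartile range of -0.10 to 0.07 and a full range of -0.41 to 0.32. It was 0.02 over 8099 other autosomal promoter regions and -0.003 over all regions. The large subunit (median 0.01), the small subunit (-0.02) and the P-stalk (0.004) lay close to 0, and the 4 acetylated paralogs had a median of -0.11. All 75 regions were deposited with the state of both ages, as were 99.2% of all regions.

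**Figure D2:**
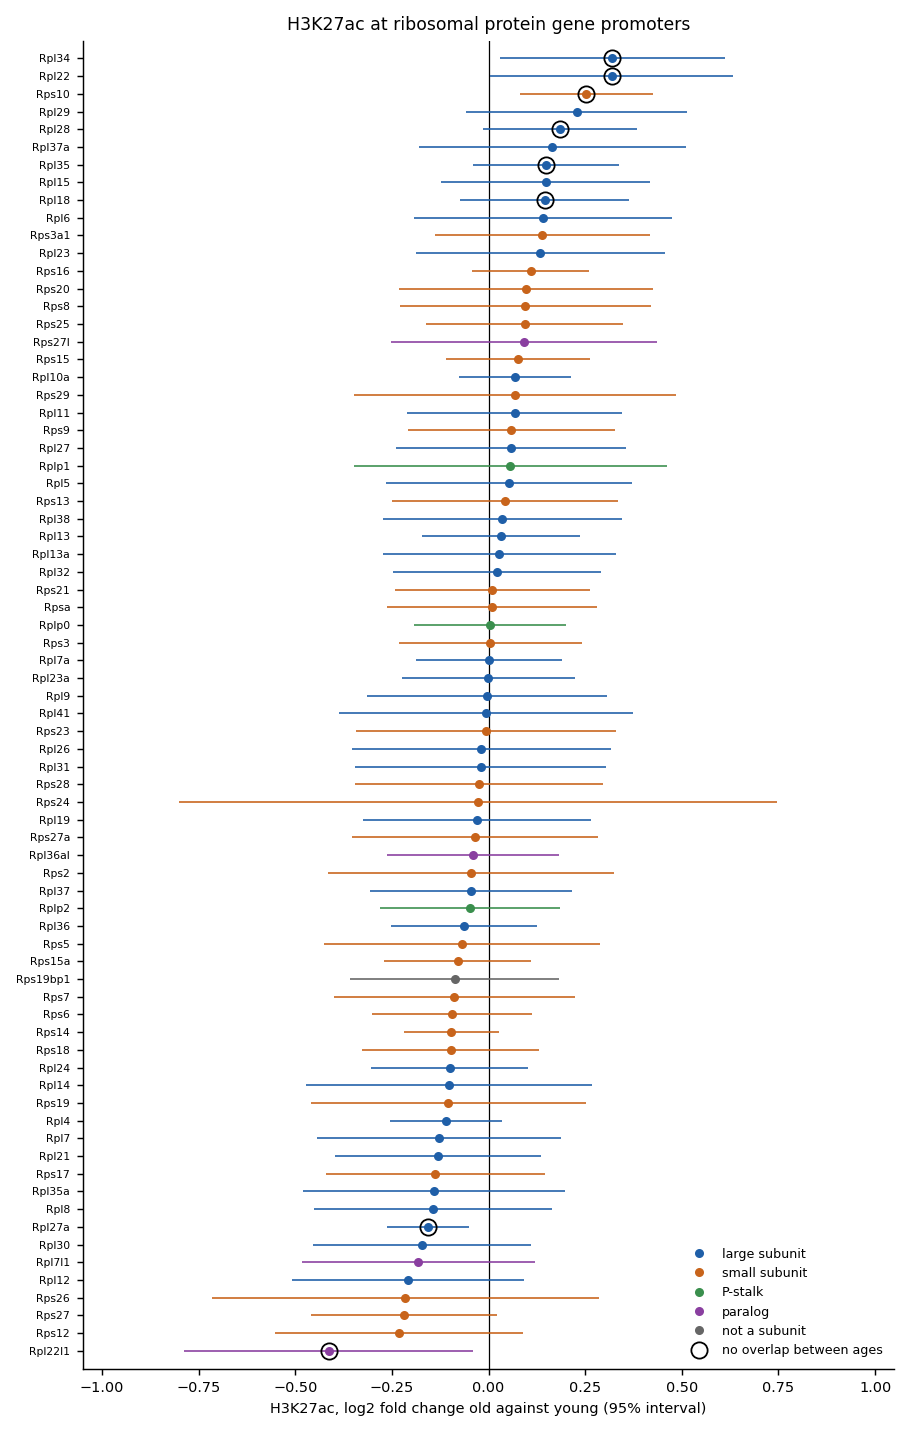
Log2 fold change of H3K27ac, old against young, with its 95% interval for 74 of the 75 member regions, ordered by size and coloured by class. Rings mark the 8 regions whose old and young libraries did not overlap, from Rpl22l1 at -0.41 to Rpl34 at 0.32, and none of the intervals reaches 1 on the log2 scale in either direction.

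The estimates were more precise, in the median, than those at other promoters. Member regions held a median of 92.5 reads per library, against 54.0 at other promoters and 21.7 over all regions, and the median SE of the log2 fold change was 0.14, 0.18 and 0.27 in the same order. The 95% interval lay within 1 log2 unit of 0 for 75 of 75 member regions, 90.9% of other promoters and 71.6% of all regions. It lay within 0.5 log2 units for 66 members (88.0%), against 48.7% and 22.4%, and 52.7% of the mitochondrial ribosomal protein regions. The median size of the fold change, regardless of sign, was 0.09 in members, 0.13 at other promoters and 0.19 over all regions. Read depth moved with these shares, and its part in them was not tested.

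**Figure D3:**
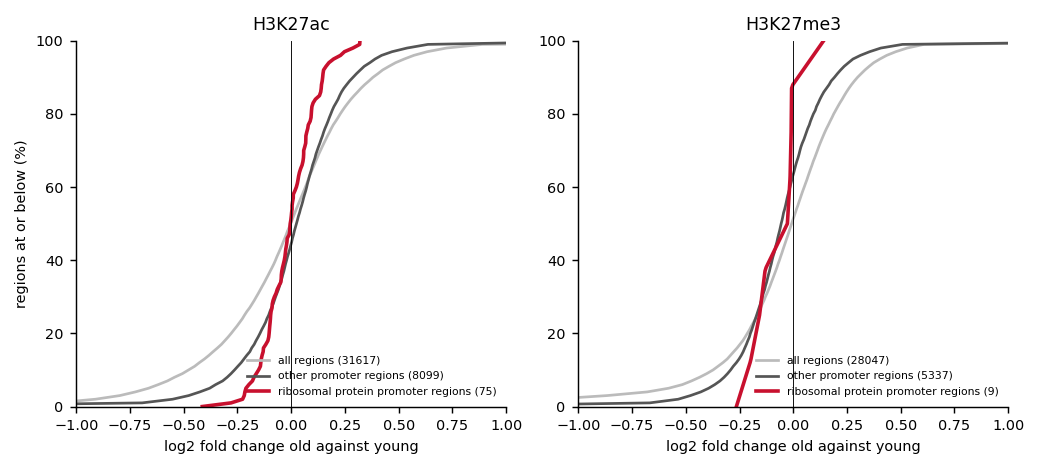
Cumulative percentage of regions at or below each log2 fold change, old against young, for H3K27ac (left) and H3K27me3 (right), in ribosomal protein promoter regions, other promoter regions and all regions. The H3K27ac curve of the members is the steepest, between -0.41 and 0.32, and crosses 50% near 0. Values beyond 1 in either direction are outside the axes.

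The members used as reference genes in expression work differed between the ages by less than their error. Rplp0, the scaffold protein of the P-stalk, had scaled H3K27ac signals of 96.4, 114 and 106 in the young libraries and 95.7, 110.1 and 111 in the old libraries. Its log2 fold change was 0.00 (SE 0.10, adjusted p = 0.995), with a 95% interval of -0.19 to 0.20. The region was 49.5 kb long, the longest of the P-stalk genes, so these values are not those of the start site alone. The groups overlapped. Rpl13a, a large subunit protein that also takes part in translational silencing after interferon, had 39.9, 36.4 and 36.8 in the young libraries and 31.5, 46.4 and 38.7 in the old libraries, in a region with 2 start sites. The log2 fold change was 0.03 (SE 0.15, adjusted p = 0.974), with an interval of -0.27 to 0.33. Old replicates 1 and 2 were the extremes on both sides. Rps18 had 67.0, 75.01 and 63.5 in the young libraries and 60.6, 63.7 and 67.3 in the old libraries, and the log2 fold change was -0.10 (SE 0.11, adjusted p = 0.839), with an interval of -0.33 to 0.13. The groups overlapped in all 3 genes. These intervals bound the difference and do not show that it was 0.

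The other P-stalk genes and the members with roles outside the ribosome were described whatever their values. The mean scaled signal of Rplp1 was 17.9 ± 3.71 in young and 18.4 ± 1.39 in old libraries (SD, n = 3) and that of Rplp2 was 71.9 ± 9.69 in young and 69.2 ± 5.36 in old libraries, with log2 fold changes of 0.06 and -0.05. Rpl5 and Rpl11, which bind MDM2 together with the small ribosomal RNA of the large subunit when ribosome assembly fails, had log2 fold changes of 0.05 (SE 0.16, adjusted p = 0.948) and 0.07 (SE 0.14, adjusted p = 0.920). For Rps19 and Rps14, haploinsufficient in Diamond-Blackfan anaemia and in the 5q- syndrome, they were -0.10 (SE 0.18, adjusted p = 0.900) and -0.10 (SE 0.06, adjusted p = 0.656). Rps6 gave -0.10 (SE 0.10, adjusted p = 0.823), Rpsa, also known as the laminin receptor, 0.01 (SE 0.13, adjusted p = 0.992), and Rps27a, which encodes a fusion of ubiquitin to the S27a protein, -0.04 (SE 0.16, adjusted p = 0.967). Rps27 gave -0.22 (SE 0.12, adjusted p = 0.568) and Rps27l 0.09 (SE 0.17, adjusted p = 0.911). Rps19bp1, in a region it shares with Atf4, gave -0.09 (SE 0.13, adjusted p = 0.886). The old and young libraries overlapped in all of these genes.

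In 8 of the 75 regions (10.7%) the old and young libraries did not overlap, against 14.5% of all regions, and none of the 8 passed the test. The old libraries were higher in 6, against a background of 7.09%, and lower in 2, against 7.42%. Rpl34, a large subunit protein, had scaled signals of 31.7, 36.4 and 32.2 in the young libraries and 39.9, 47.2 and 38.7 in the old libraries. Its log2 fold change was 0.32 (SE 0.14, adjusted p = 0.466). Rps10 had 144, 137 and 137 in the young libraries and 152, 187 and 162 in the old libraries, and its log2 fold change was 0.25 (SE 0.09, adjusted p = 0.277). Old replicate 2 was the highest library in both genes, and without it the values were 0.23 for Rpl34 and 0.17 for Rps10. The region of Rps10, chr17:27574001-27638500, was 64.5 kb long and also covered the start of Nudt3, so its signal is not that of Rps10 alone. Rpl28, Rpl35 and Rpl18, all of the large subunit, gave 0.18 (SE 0.10, adjusted p = 0.562), 0.15 (SE 0.09, adjusted p = 0.647) and 0.14 (SE 0.11, adjusted p = 0.712), in regions with 5, 3 and 5 start sites. Without young replicate 3 the value of Rpl35 was 0.09.

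Of the 2 regions lower in old libraries, Rpl27a had the smaller error. The gene encodes a large subunit protein, and its scaled signals were 699, 657 and 711 in the young libraries and 638, 565 and 652 in the old libraries. The log2 fold change was -0.16 (SE 0.05, adjusted p = 0.273), and all old libraries lay below all young ones. Without old replicate 2 it was -0.09. The region, chr7:109516501-109676000, was the longest of the members at 159.5 kb and covered 1 protein-coding start, so most of it lay downstream of the Rpl27a promoter. At its start site the run of C and T was 19 bases long within the 30 bases read and reached the last of them, so its full length was not measured.
Rpl27a (chr7:109519180-109519209, plus strand): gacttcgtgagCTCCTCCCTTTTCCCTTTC
The long region gave 1506 reads per library, against the median of 92.5.

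Rpl22 and its paralog Rpl22l1 lay on opposite sides. Both encode RNA-binding proteins of the large subunit that take the same place in the ribosome, and Rpl22 is known to restrain Rpl22l1. Rpl22 had scaled H3K27ac signals of 28.1, 24.2 and 28.0 in the young libraries and 33.1, 33.0 and 34.1 in the old libraries. Every old library was above every young one, and the log2 fold change was 0.32 (SE 0.16, adjusted p = 0.515). Without young replicate 2 it was 0.25. Rpl22l1 had 27.4, 24.2 and 24.7 in the young libraries and 22.3, 14.9 and 20.4 in the old libraries. Every old library was below every young one, and the log2 fold change was -0.41 (SE 0.18, adjusted p = 0.463), the lowest of the 75. Without old replicate 2 it was -0.25. Each region covered only its own gene's start, chr4:152324501-152337500 and chr3:28803501-28811000, at 67.5 and 52.7 reads per library. Neither difference passed the test over all regions, and the difference between the genes was not tested. Their start sites are shown because the letters differ: the longest run of C and T was 4 bases in Rpl22 and 10 in Rpl22l1.
Rpl22 (chr4:152325711-152325740, plus strand): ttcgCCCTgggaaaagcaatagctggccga
Rpl22l1 (chr3:28805493-28805522, plus strand): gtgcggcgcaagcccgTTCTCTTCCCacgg

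**Figure D4:**
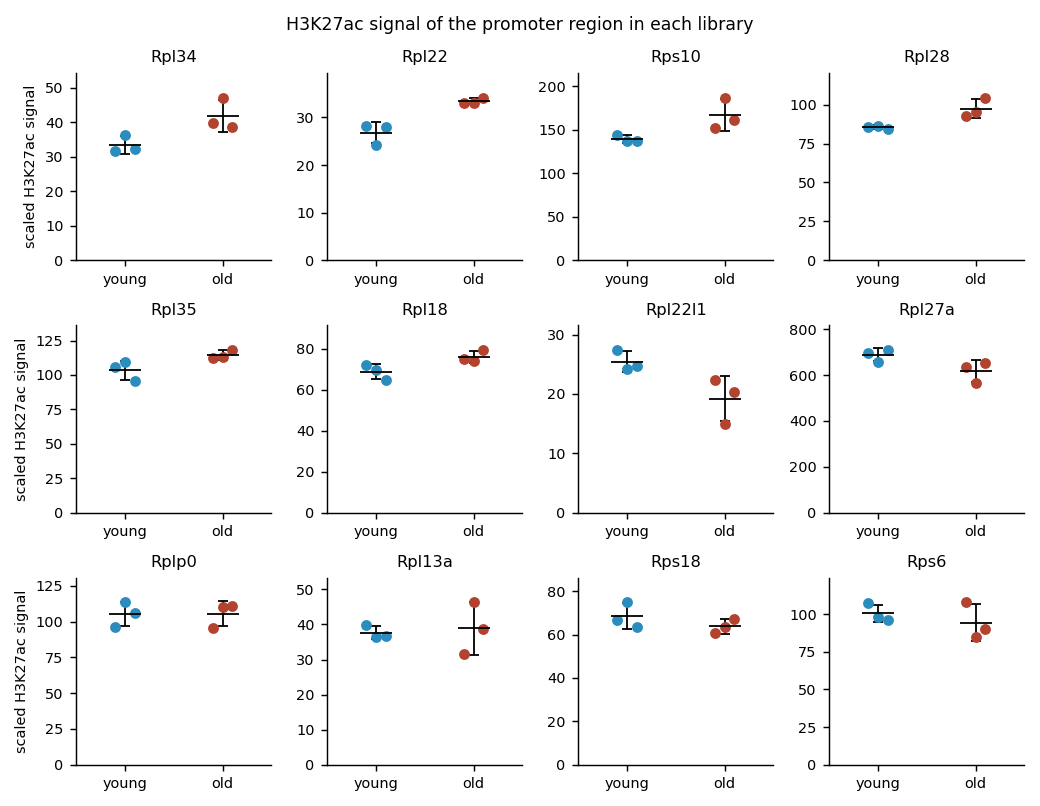
Scaled H3K27ac signal of the promoter region in each young and old library (points), with the mean and SD of 3 libraries (black), for the 8 members whose ages did not overlap and for Rplp0, Rpl13a, Rps18 and Rps6. The vertical axes start at 0 and differ between genes. The old points of Rpl22 (33.0 to 34.1) lie above its young points (24.2 to 28.1), and those of Rpl22l1 (14.9 to 22.3) lie below (24.2 to 27.4).

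The level of the mark differed more between members than between ages. Signal per kb of region, averaged over all libraries, had a median of 2.54 and ran from 1.75 to 4.10, against medians of 2.35 at other promoters and 2.20 over all regions. It was highest at Rpl27a (4.10), Rps14 (3.84), Rpl38 (3.61) and Rpl7a (3.46). Rpl38 is a large subunit protein needed for the translation of Hox mRNAs, and Rpl7a sits in a cluster with the Surf genes, whose starts its region also held. It was lowest at Rpl15 (1.75), a protein of the large subunit core, Rpsa (1.80), Rps6 (1.80) and Rplp1 (1.81). Regions were long, with a median of 15 kb and a range of 2.0 to 159.5 kb, against 10.5 kb at other promoters, and 29 of the 75 held 1 start site. Signal per kb depends on where the ends of a region were set, and it is not a level at the start site alone.

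The members together held 0.238% (old replicate 1) to 0.316% (young replicate 1) of all H3K27ac reads in single libraries. Of the reads that fell in regions they held 0.713% (old replicate 1) to 0.763% (young replicate 1). They held 0.287% ± 0.0295 of all H3K27ac reads in young and 0.262% ± 0.0325 in old libraries (SD, n = 3), and the groups overlapped. Per kb, the members' median exceeded that of other promoters by 0.10 ± 0.05 log2 units in young and 0.06 ± 0.06 in old libraries, a difference of -0.03 within the spread. Scaling factors computed from the members alone were 0.933 to 1.04 times those from all regions. On the signal as deposited, before scaling, the median log2 fold change of the members was -0.12 and 63 of 75 (84.0%) were below 0, while the median over all regions was also -0.12, with 67.0% below 0. Relative to that shift the median of the members stood at about the level of the table, while a larger share of them was below 0. At other promoters the median was -0.09, with 69.4% below 0. The scaling sets the bulk of regions to no change, so a gain or loss shared by all regions cannot be read from the scaled values. The source of the shift was not tested. In bulk cells, less of the mark per cell and fewer cells with the mark cannot be told apart.

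H3K27me3 was tested in the 9 members that had a region in the window, and 0 were called by limma, against 137 of 28047 regions in the table (0.488%). At an unadjusted p under 0.05 there were 0, against 13.9%, edgeR called 0, against 1.36%, and DESeq2 called 0 of the 4 to which it gave an adjusted p, against 76 of 8472 in the table (0.897%). The median log2 fold change was -0.03, against -0.06 at other promoters and -0.008 over all regions. It was below 0 in 8 of the 9, against 63.6% of other promoters and 51.4% of all regions. In 1 region the ages did not overlap, against 19.1% of all regions and 10.6% with the old libraries lower. This was Rpl38, with 19.0, 19.7 and 18.6 in the young libraries and 14.8, 18.2 and 14.6 in the old libraries. All old libraries were lower, and the log2 fold change was -0.26 (SE 0.16, adjusted p = 0.475). The H3K27ac region of Rpl38 overlapped between the ages, with a log2 fold change of 0.04. The 9 regions together held 0.0309% ± 0.00300 of H3K27me3 reads in young and 0.0269% ± 0.00303 in old libraries (SD, n = 3), and the groups overlapped. On the signal as deposited their median log2 fold change was -0.15, against -0.18 at other promoters and -0.13 over all regions.

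The position of the marks set the 9 genes in 3 groups. At Rpl34, Rps3, Rps26, Rpl26 and Rpl38 the H3K27me3 region lay upstream and ended 0.524 to 0.763 kb before the start. At Rps3, Rps26 and Rpl38 the H3K27ac region began at the next base, with 0 bp between them, while the regions overlapped by 500 bp at Rpl34 and 1000 bp at Rpl26. Regions were deposited in steps of 500 bp, which limits how well a border is placed. At Rpl3 and Rpl17 the H3K27me3 region covered the gene-record start and stopped 1000 bp before the H3K27ac region of the transcript start. At Rps27rt and Rpl3l it ran over the start, from -0.761 to 7.74 kb and from -1.32 to 5.68 kb relative to it, and no H3K27ac region was in the window.

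**Figure D5:**
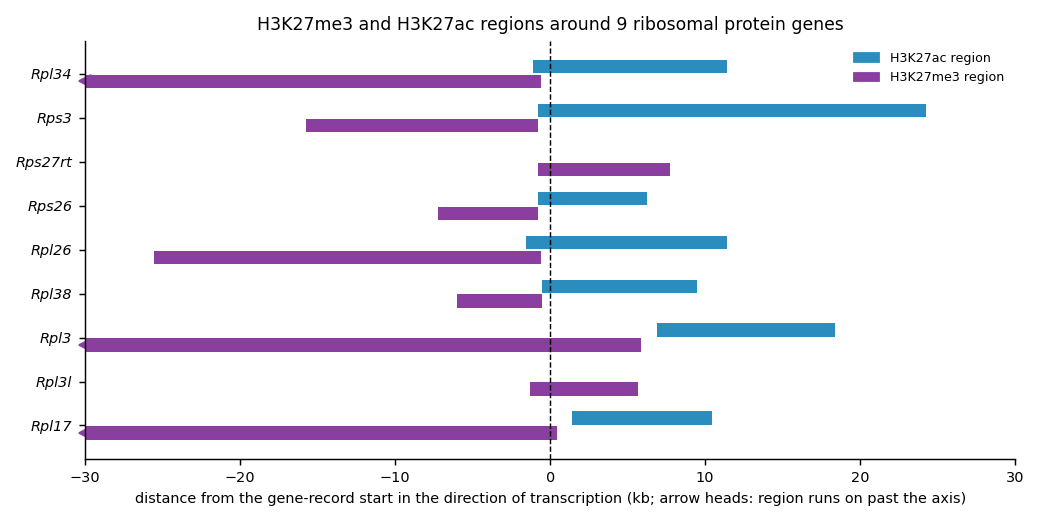
H3K27me3 (purple) and H3K27ac (blue) regions of the 9 members with H3K27me3 in the window, by distance in kb from the gene-record start (dashed line) in the direction of transcription. Arrow heads mark regions that run on past the axis. In 5 genes H3K27me3 ends 0.524 to 0.763 kb upstream and H3K27ac takes over, and Rps27rt and Rpl3l have H3K27me3 alone.

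None of the other 8 H3K27me3 regions passed the test. Rpl34 had scaled signals of 133 ± 5.14 in young and 131 ± 14.5 in old libraries (SD, n = 3) and a log2 fold change of -0.03 (SE 0.10, adjusted p = 0.932). Rps3, a small subunit protein at the mRNA entry, gave -0.01 (SE 0.13, adjusted p = 0.987). Rps26, at the mRNA exit, gave 0.14 (SE 0.19, adjusted p = 0.793), and Rpl26, a p53 mRNA-binding subunit protein, gave -0.01 (SE 0.11, adjusted p = 0.969). The long regions over the gene-record starts of Rpl3 and Rpl17 gave -0.01 (SE 0.09, adjusted p = 0.976) and -0.16 (SE 0.10, adjusted p = 0.526). For Rps27rt the signals were 18.2, 24.3 and 25.9 in the young libraries and 18.8, 21.0 and 19.0 in the old libraries, with a log2 fold change of -0.20 (SE 0.16, adjusted p = 0.621). For Rpl3l they were 11.5, 14.1 and 13.3 in the young libraries and 12.2, 13.1 and 10.1 in the old libraries, with -0.13 (SE 0.18, adjusted p = 0.805). The ages overlapped in each gene but Rpl38. The region of Rps27rt also held the start of Osbpl10, that of Rpl3 the start of Syngr1 and that of Rpl17 the start of Lipg. The region of Rpl26 held the start of Rnf222 and not that of Rpl26. The signal of these regions is therefore not that of the members alone.

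Near the members, H3K27me3 lay mostly upstream. A region came within 5 kb of 28 starts (34.1%), against 35.8% of the other autosomal genes with an H3K27ac promoter region and 47.6% of all other autosomal genes. In 4 of the 28 it covered the start, and in 22 of the other 24 (91.7%) the nearest region was upstream. The share upstream was 27 of 27 for mitochondrial ribosomal protein genes and 88.9% of 3106 other genes with an H3K27ac promoter region, close to that of the members.

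Other genes of translation were counted beside the members. An H3K27ac promoter region was found at 19 of 20 translation factor and TOP mRNA genes and at 30 of 30 ribosome biogenesis genes. In these lists, and in the 75 mitochondrial ribosomal protein genes with a region, 0 passed the limma test in either direction for H3K27ac, and 0 for H3K27me3 at the 2 translation, 2 biogenesis and 11 mitochondrial genes that had a region. The median H3K27ac log2 fold changes were 0.06 for translation factors, 0.05 for biogenesis and -0.02 for mitochondrial ribosomal proteins. At an unadjusted p under 0.05 there were 0, 1 and 4 for H3K27ac, against 9.6% of all regions. These 5 genes were Polr1b, a subunit of RNA polymerase I (0.43, adjusted p = 0.444), and Mrpl17 (-0.56), Mrpl39 (-0.70), Mrpl32 (-0.39) and Mrpl13 (-0.43), with adjusted p-values of 0.459 to 0.516. For H3K27me3 there was 1 of the 11 mitochondrial genes, Mrps18a (-0.46, adjusted p = 0.260), against 13.9% of all regions. These shares lie below the background and are no result about the lists. edgeR called 0 in the same regions of both marks.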

How the data were processed

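H3K27ac and H3K27me3 were measured by CUT&RUN in 12 libraries. Per the labels, Bowtie2, Picard and mm10 (GRCm38) were used, without versions; the region caller is not given in the sources used here. The authors deposited 1 table per mark with the signal of every region in every library. The tables call it RPKM, but the deposited signal was a whole number of reads, scaled to library size and divided by a constant 0.5 kb (100% of values within 1e-06 reads), not by region length, so reads and totals were recovered; the planned test had assumed RPKM and was kept. Of per-sample columns, 0 were unused. The publication supplied does not report these libraries.

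Members were placed with GENCODE vM21 on the same build. If several regions lay in a window, the one nearest the start was used. Signal was scaled by the median of ratios (RLE), and log2(signal + 0.5) was fitted with limma 3.58.1 (variance trend, robust, two-sided, Benjamini-Hochberg over all regions of a table, called at adjusted p under 0.05). On this scale the fold change of a region with few reads is drawn toward 0. No filter on low values was used. edgeR 4.0.16 and DESeq2 1.42.0 on recovered reads were alternatives. On simulated data, limma recovered 42.0% and 93.0% of H3K27ac regions altered by 1 and 2 log2 units, and 59.0% and 97.0% of H3K27me3 regions. The simulation used a fixed spread between libraries that was not estimated from these data. Its altered regions were drawn from the whole table above a read limit, so the rates are not those of the member regions. The floor of a region, 3 reads, was a signal of 1.08 to 2.18 for H3K27ac and 0.603 to 1.66 for H3K27me3. Named members were those called, up to 5 highest and 5 lowest among regions whose ages did not overlap, the 4 highest and 4 lowest in H3K27ac signal per kb, all with H3K27me3 or without H3K27ac, and 21 fixed names; Rpl18 and Rps24 were named after their values were seen. Some genes are not reported here. The members and lists were chosen with earlier results of these data known. The labels give no batch or date, so no within-batch values could be computed.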

Additional observations from a re-analysis of the deposited data

How the results depend on the processing

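Under all 21 alternatives to each test, 0 member regions were called in either mark. Leaving out each replicate in turn gave calls of 0 to 0, H3K27ac medians of -0.05 to 0.03, H3K27me3 medians of -0.08 to -0.002, and differences in excess over other promoters of -0.06 to -0.002 for H3K27ac and -0.02 to 0.09 for H3K27me3. Without scaling, the median log2 fold change was -0.12 for H3K27ac and -0.15 for H3K27me3, and with H3K27me3 regions of at most 10 kb it was -0.16 over 4 regions. The share with H3K27ac was 97.3% over core subunits. The share with H3K27me3 was 4.88% in a window of 0.5 kb and 34.1% in one of 5 kb, and the difference in H3K27me3 excess over other promoters was -0.0655 and -0.0940 in these windows, against 0.0352. A wider window takes in more genes by construction. The cause of the other shifts was not tested.

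With the replicate number as a block, calls were 0 in both marks and the medians stayed at -0.005 and -0.03. Deviations of same-numbered libraries correlated at 0.07, 0.02 and -0.05 for H3K27ac and 0.02, 0.04 and -0.08 for H3K27me3. With 3 libraries per age, such values cannot show whether the numbers pair the libraries. Across the table, calls rose from 26 to 94 with edgeR and 105 on the deposited signal for H3K27ac, and from 137 to 382 and 774 for H3K27me3, while DESeq2 called 6 of 2807 and 76 of 8472 regions with an adjusted p. The region at the gene-record start of Rps24, with 8.83 reads, had an SE of 0.38, against a median of 0.14 over the members.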
